A study of Mus musculus with 4 samples.

Results

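Astrocytes are star-shaped glial cells that take up transmitters, buffer ions and water, feed neurons and stiffen after injury by building intermediate filaments. The genes described here are those most often used to recognise them: the filament genes Gfap and Vim, the enzymes Aldh1l1 and Aldoc, the water channel Aqp4, the peptide precursor Agt and the secreted chaperone Clu. They were chosen by name, and 6 of these 7 genes were among the 6940 genes listed in the deposited table. Agt was not analysed here. None of the 7 is strictly private to astrocytes. Vim is also made by precursors, fibroblasts and endothelium, Clu by neurons and choroid plexus, and glial precursors in culture can express several of the others.

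The RNA came from cells labelled as oligodendrocytes, the myelin-forming glia, taken from the cortex of C57BL/6 mice at postnatal day 5. Precursors had been captured by immunopanning with GalC and O4 antibodies, grown for 6 days and harvested after 24 h in differentiation medium with 40 ng/mL triiodothyronine. The 2 control libraries had the genotype Zdhhc5fl/fl, and the 2 conditional knockout (cKO) libraries had Olig1cre/+;Zdhhc5fl/fl, so that floxed Zdhhc5, which encodes a palmitoyltransferase, was present in every library. Cre in the Olig1 locus was present in the cKO libraries only, and its own effects cannot be told apart from those of the deletion. Zdhhc5 itself was not analysed here, so the genotypes were not checked by its level. Whether replicate libraries stem from different cultures or mice is not stated in the labels. The p-values then measure only the spread between these libraries, which may be technical.

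Values are normalised reads, that is read counts divided by 1 factor per library, and n = 2 libraries per genotype throughout. The listed genes held between 13672254 and 20068016 reads per library. The 2 libraries of a genotype differed by more than counting noise (2.32 times the chi-square that counting alone gives per gene in the controls and 3.24 times in the cKO libraries), so neither pair was taken for repeat deposits of 1 library. This does not show that they are separate cultures. The table lists only genes that the authors had called, 40.0% of the 17347 behind their adjustment. Each of the 6 genes is therefore present because it differed, and since limma called all 6940 listed genes, a call by itself sets no gene apart.

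Gfap, glial fibrillary acidic protein, forms the filaments that define astrocytes under the microscope. It gave 351481 and 352111 normalised reads in the control libraries and 557247 and 553584 in the cKO libraries. The cKO libraries were both far above the controls, and the libraries of a genotype differed by under 1% (0.179% and 0.659%). The mean rose from 351796 ± 445 to 555415 ± 2589.8 (SD, n = 2), which is 1.58-fold (0.66 on the log2 scale, SE 0.025, limma adjusted p 7.22e-17). Gfap (ENSMUSG00000020932) lies on the minus strand of chromosome 11 from 102887336 to 102900912 (GRCm38). Gfap had the most reads of any listed gene in every library and ranked second per kb of gene length, behind the mitochondrial gene mt-Co1.

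Vim encodes vimentin, the filament partner of Gfap in immature and reactive astrocytes. Its libraries read 70777 and 68928 in controls and 118741 and 115049.6 in cKO cells, with no overlap. The mean rose 1.67-fold, from 69852 ± 1308 to 116896 ± 2611 (0.74 on the log2 scale, SE 0.027, limma adjusted p 4.15e-17). Vim, ENSMUSG00000026728, lies on the plus strand of chromosome 2 from 13573927 to 13582826. Per kb, Gfap exceeded Vim 5.58 and 5.74 times in control libraries, against 5.28 and 5.41 times in cKO libraries.

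Sequence upstream of these filament genes is shown because both rose and because the promoter of Gfap is a textbook example of an astrocyte promoter. The RefSeq starts of Gfap, Vim and Aldh1l1 lie inside the gene spans of the table. Each window runs from 250 bases before to 50 bases after the RefSeq start (GRCm38.p6), 5′ to 3′ on the gene's own strand. The windows are chr11:102897151-102897450 on the minus strand for Gfap and chr2:13574061-13574360 on the plus strand for Vim. The window of Aldh1l1, an enzyme gene that also rose, is chr6:90550543-90550842 on the plus strand. Capitals mark matches to 3 motifs searched on both strands, namely TTCNNNGAA, the palindrome that STAT factors bind, TTGGC, the half-site of nuclear factor I, and TATAAA, the TATA box. The motifs do not overlap one another in these windows.
Gfap: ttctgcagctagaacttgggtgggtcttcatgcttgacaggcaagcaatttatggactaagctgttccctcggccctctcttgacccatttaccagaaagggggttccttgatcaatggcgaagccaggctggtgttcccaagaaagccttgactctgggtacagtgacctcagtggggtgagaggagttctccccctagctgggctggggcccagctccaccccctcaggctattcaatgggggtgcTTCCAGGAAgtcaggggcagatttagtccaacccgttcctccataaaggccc
Vim: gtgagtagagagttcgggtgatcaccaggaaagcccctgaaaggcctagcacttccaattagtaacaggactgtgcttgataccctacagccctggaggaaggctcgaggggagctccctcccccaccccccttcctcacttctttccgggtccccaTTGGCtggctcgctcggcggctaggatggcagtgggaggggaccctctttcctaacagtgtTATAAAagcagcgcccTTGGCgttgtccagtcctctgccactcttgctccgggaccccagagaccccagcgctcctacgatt
Aldh1l1: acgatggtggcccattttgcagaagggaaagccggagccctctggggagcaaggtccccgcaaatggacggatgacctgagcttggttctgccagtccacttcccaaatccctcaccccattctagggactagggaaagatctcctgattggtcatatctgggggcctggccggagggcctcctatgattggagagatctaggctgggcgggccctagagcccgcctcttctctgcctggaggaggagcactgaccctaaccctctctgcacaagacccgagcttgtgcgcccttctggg

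With the start counted as base 0, the TTCNNNGAA match of Gfap lay at bases -2 to 6. Vim held TATAAA at bases -32 to -27 and TTGGC at bases -93 to -89 and -16 to -12, while none of the 3 motifs was found in the Aldh1l1 window. Of 32851 promoter windows of the same length, 8.30% held TTCNNNGAA, 46.7% TTGGC and 13.6% TATAAA. These are matches of letters and not measured binding. Aldoc had windows at 2 starts, of which the upstream one held TTGGC at bases -146 to -142 and the downstream one TTCNNNGAA at bases -124 to -116 and -83 to -75.

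Aldh1l1, a cytosolic enzyme that oxidises 10-formyltetrahydrofolate in folate metabolism, is the broadest marker of astrocytes in cortex. It read 13875 and 14041 in the controls against 24149.5 and 22789.7 in cKO libraries. Both cKO libraries were higher than both controls, although they differed from each other by 5.79%, the widest gap among the 6 genes. The mean rose 1.68-fold, from 13958 ± 117 to 23469.6 ± 962 (0.75 on the log2 scale, SE 0.032, limma adjusted p 8.42e-16). Aldh1l1 (ENSMUSG00000030088, plus strand of chromosome 6, 90486427 to 90600203) shares 105 exon bases with the lincRNA Gm45901 on its own strand and 499 with Gm15756 on the opposite strand. The strand setting of the counting is not given in the sources used here, so reads of these neighbours cannot be told apart from its own.

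Aldoc encodes aldolase C, the brain form of the glycolytic enzyme that splits fructose bisphosphate. It read 22898 and 23002 in controls and 35637 and 35336 in cKO libraries, groups that did not overlap. The mean rose 1.55-fold, from 22950.2 ± 73.8 to 35486 ± 213 (0.63 on the log2 scale, SE 0.028, limma adjusted p 2.04e-15). This was the smallest of the 5 rises. Aldoc is ENSMUSG00000017390, on the plus strand of chromosome 11 from 78322968 to 78327781.

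Clu encodes clusterin, also called apolipoprotein J, a chaperone and lipid carrier that astrocytes secrete. It read 18471 and 18045 in controls and 31528 and 31274 in cKO libraries. The groups were well separated, and the mean rose 1.72-fold, from 18258 ± 301 to 31401 ± 179.9 (0.78 on the log2 scale, SE 0.029, limma adjusted p 4.69e-17). Clu had the largest rise of the 6 genes, with 720 listed genes above it. Clu is ENSMUSG00000022037, on the plus strand of chromosome 14 from 65968483 to 65981547.

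Aqp4, the water channel of astrocyte endfeet, went the other way on the authors' scaling. It read 40951 and 40837 in controls and 37488 and 35729 in cKO libraries, so both cKO values lay below both controls by a small margin. The mean fell from 40894 ± 80.7 to 36609 ± 1243, which is 1.12-fold lower (-0.16 on the log2 scale, SE 0.029, limma adjusted p 5.11e-05). In the table Aqp4 (ENSMUSG00000024411) spans 15389394 to 15403684 on the minus strand of chromosome 18. This direction depended on the scaling of the libraries. It was 0.032 on the log2 scale with DESeq2's own size factors (DESeq2 adjusted p 0.870), which raised all listed genes by a median of 0.191. These factors were computed from the listed genes alone, all of which were listed for their difference. The log2 value of Aqp4 was 0.46 (limma adjusted p 9.98e-12) when the trend with GC content was taken out. Set against the median of all listed genes, Aqp4 stood 0.057 higher.

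**Figure D1:**
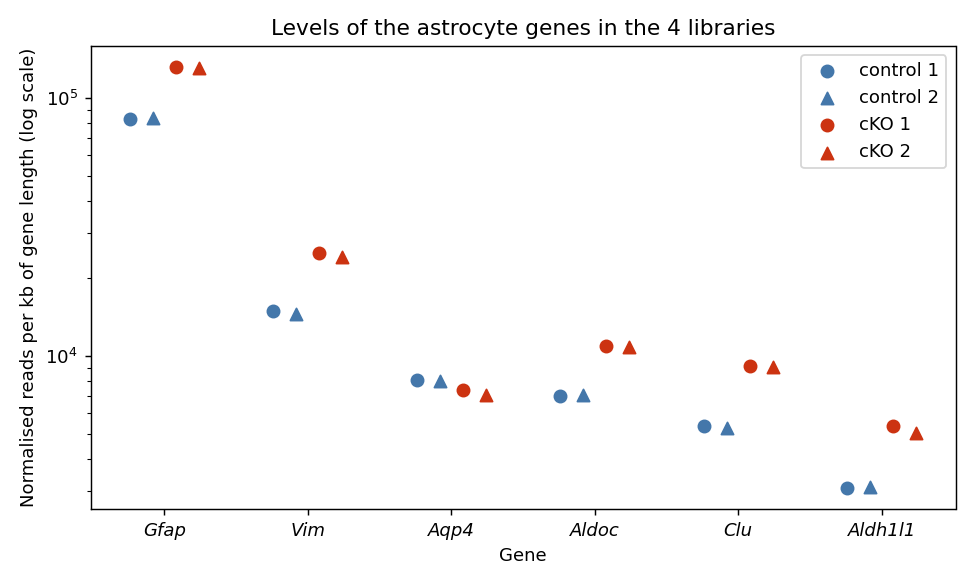
Normalised reads per kb of gene length on a log axis for the 6 listed astrocyte genes, with 1 point per library (blue control, red cKO; circle replicate 1, triangle replicate 2). Gfap stands far above the others, from 83329 to 132112, and only Aqp4 has both cKO points below its control points.

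Per kb of gene length, which puts the genes on 1 scale of level, the order in the controls ran Gfap, Vim, Aqp4, Aldoc, Clu and Aldh1l1. Gfap stood at 83329 and 83478 normalised reads per kb in the controls against 132112 and 131243 in cKO libraries. Vim followed at 14922 and 14533 in controls and 25035 and 24257 in cKO. Aqp4 stood at 8058 and 8036 against 7377 and 7031, Aldoc at 7017 and 7049 against 10921 and 10829.

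Clu, at 5374 and 5250.3 normalised reads per kb in controls, reached 9173 and 9099 in cKO libraries, and Aldh1l1 went from 3072 and 3109 to 5348 and 5046. In the cKO libraries Aldoc and Clu therefore both stood above Aqp4, which had been above both in the controls. No neighbours in either order overlapped in their library values. Together the 6 genes took 3.04% and 3.03% of all listed reads in the controls against 4.91% and 4.89% in cKO libraries, and Gfap alone took 2.06% in each control and 3.40% and 3.41% in the cKO libraries.

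**Figure D2:**
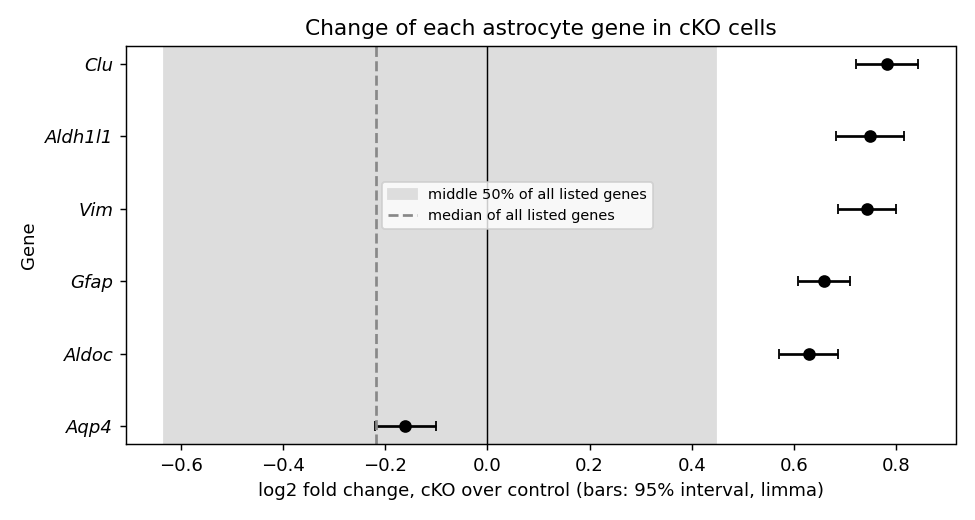
Log2 fold change of each gene, cKO over control, with its 95% interval from limma (n = 2 per genotype). Grey marks the middle 50% of all listed genes and the dashed line their median of -0.22; the 5 genes that rose lie between 0.63 and 0.78, and Aqp4 lies at -0.16.

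Across the genes, 5 rose and 1 fell in limma, where 46.7% of all listed genes were called higher and 53.3% lower. With DESeq2's own size factors 56.3% of the calls over all genes were higher, and 5 of these 6 genes rose with 0 called lower. The same 5 had both cKO values above both control values, which held for 46.7% of listed genes, and Aqp4 had both below, which held for 53.3%. All 5 rises were at least 1.5-fold, against 17.4% of listed genes that rose by as much. With the trend across GC content taken out, Vim alone was still past 1.5-fold, at 1.01 on the log2 scale, and the other 4 stood at 0.29 (Gfap) to 0.42 (Aldoc). The median log2 fold change of the 6 genes was 0.70, that of all listed genes -0.22. On the authors' scaling the 95% intervals of the rises ran from 1.48-fold at the low end of Aldoc to 1.79-fold at the high end of Clu. In bulk RNA, more cells of a type and more RNA per cell cannot be told apart.

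Ratios within a library do not depend on 1 scaling factor per library, but they do depend on a correction that differs between genes. Gfap exceeded Aqp4 per kb 10.3 and 10.4 times in control libraries, against 17.9 and 18.7 times in cKO libraries. The ratio of Clu to Aqp4 went from 0.667 and 0.653 to 1.24 and 1.29. Each of the 5 rising genes had a higher ratio to Aqp4 in both cKO libraries, 1.73 to 1.92 times the control mean. An exact two-sided permutation test on 2 against 2 libraries gave p = 0.333 for each of these 5 ratios, the smallest it can give. Without the GC trend the log2 value of Aqp4, 0.46, was above those of Gfap, Clu, Aldh1l1 and Aldoc (0.29, 0.41, 0.41 and 0.42). Relative to Aqp4 these 4 genes then turned to lower in cKO cells, and Vim alone stayed higher. With the trend of length also removed, both Aldh1l1 (0.46) and Vim (0.95) stood above Aqp4 (0.41). Gfap, Aldoc and Clu (0.32, 0.35 and 0.39) stood below it. Corrected ratios were not computed for single libraries. These differences from Aqp4 were not tested.

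The labelled cell type was checked against its own markers. Counts in this and the following lists stand beside 46.7% of all listed genes called higher and 53.3% lower. Without the GC trend, 2348 and 2409 of 6934 genes were called higher and lower. Of 16 oligodendrocyte markers 15 were listed, all 15 lower in the cKO libraries, median log2 change -1.78. Their summed level was 319930 and 321821 normalised reads in controls and 92598 and 93910.4 in cKO libraries. None was at 0 in any library. Cnp, an enzyme of myelin-forming cells, read 70427 and 71745 in control libraries against 27693 and 28623 in cKO libraries, so its mRNA was present in every library. Gfap exceeded Cnp per kb 4.31 and 4.23 times in control libraries, against 17.4 and 16.7 times in cKO libraries. Cells labelled as oligodendrocytes thus held more Gfap than Cnp mRNA per kb also in the controls.

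Other astrocyte markers were read from a separate list of 30 genes, 25 of them listed. Of these, 23 rose and 2 fell, median log2 change 0.53. Calls without the GC trend were 23 higher and 1 lower, with a median of 0.54. Their summed level went from 519508 and 514793 to 725691 and 722290.2 normalised reads. The largest rises were those of Cxcl14, a chemokine (2008 ± 104 to 4239 ± 96.1, 2.11-fold), Mfge8, a secreted bridge for phagocytosis (3947 ± 6.6 to 8018 ± 527, 2.03-fold), and Ntsr2, a neurotensin receptor (2147 ± 59.8 to 4206 ± 142, 1.96-fold). The genes that fell were S100b, a calcium-binding protein also made by oligodendrocytes (2705 ± 40.8 to 875.5 ± 111, 3.09-fold lower), and Fabp7, a fatty acid carrier of radial glia (34585 ± 666 to 31416 ± 1489.8). The direction of Fabp7 depended on the scaling, its log2 value being -0.14 as reported, 0.052 with DESeq2's own size factors and 0.40 without the GC trend. Sox9, Mlc1, Hepacam, Kcnj10 and Apoe stand in this list and in a later one.

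**Figure D3:**
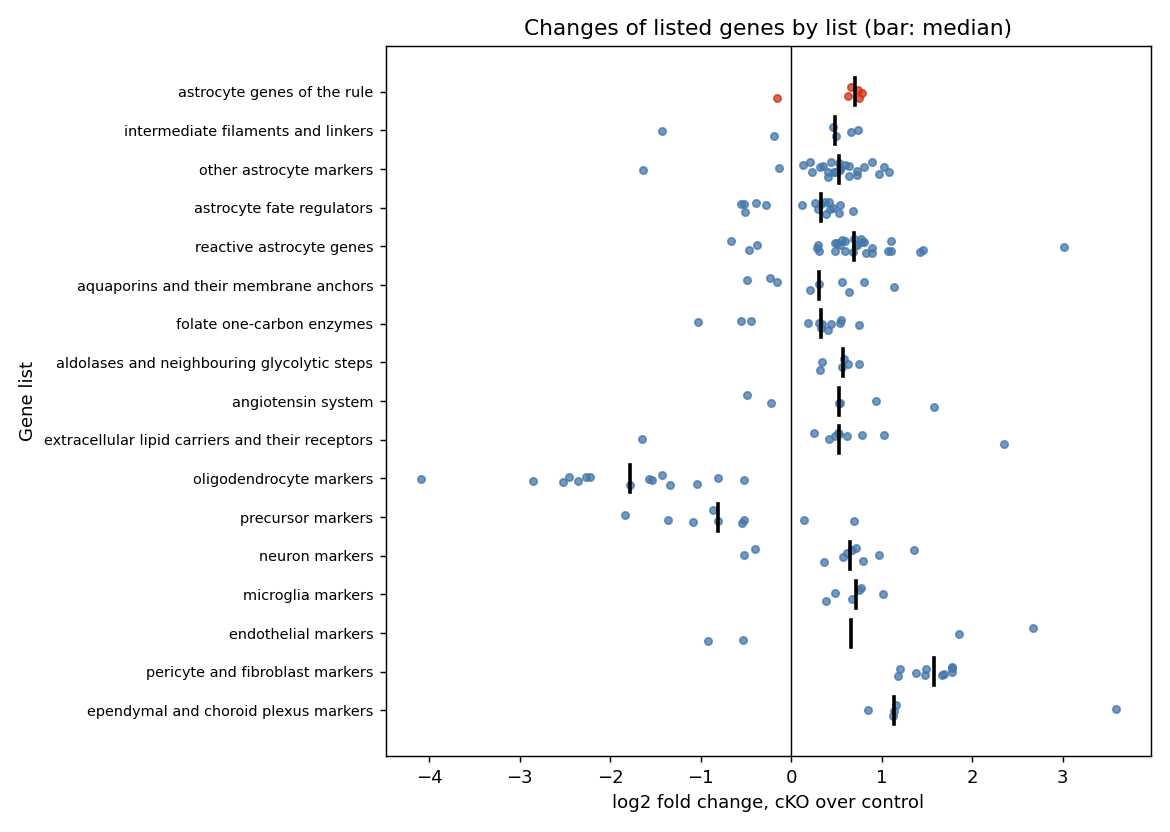
Log2 fold change, cKO over control, of every listed gene in each list, with a bar at the median of the list. The astrocyte genes of the rule are red with a median of 0.70; oligodendrocyte markers lie furthest left at -1.78, and pericyte and fibroblast markers furthest right at 1.58.

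Markers of other cells moved in the same libraries. Pericyte and fibroblast markers were listed for 10 of 12 genes, all 10 higher, and summed to 4050 and 3842 in controls and 12417 and 11998 in cKO libraries. Microglia markers were listed for 6 of 12, all 6 higher, from 2781 and 2728 to 3957 and 4132. Ependymal and choroid plexus markers were listed for 5 of 10, all 5 higher, from 2852 and 2874 to 7022 and 6711. In the last list Ttr, transthyretin of the choroid plexus, rose 12.1-fold. Neuron markers were listed for 10 of 12, with 8 higher and 2 lower, and their sum was 18610.0 and 18926 in controls against 17749 and 17532 in cKO libraries. Endothelial markers, listed for 4 of 10 with 2 higher and 2 lower, summed to 449 and 452 against 383 and 408. Precursor markers, listed for 9 of 11 with 2 higher and 7 lower, summed to 78311 and 78632 against 62910.2 and 61217. No listed marker of these cell types was at 0 in a library. Calls without the GC trend were 10 higher and 0 lower for pericyte and fibroblast markers and 4 and 0 for microglia markers. They were 5 and 0 for ependymal and choroid plexus markers and 9 and 1 for neuron markers. Endothelial markers then had 2 and 2, and precursor markers 2 and 6. Olig1 and Olig2 stand among both the precursor and the oligodendrocyte markers, and Aqp1 among both the choroid plexus markers and the aquaporins. Vim and Clu are also expressed by several of these cells, and the part of those cells in the rises was not tested.

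The filament family as a whole was mixed. Of 14 intermediate filament and lamin genes and linkers, 6 were listed, 4 higher and 2 lower. Calls without the GC trend were 3 higher and 2 lower. Beside Gfap and Vim, Lmna, the lamin of stiff nuclei, rose from 1226 ± 0.8 to 1725 ± 49.4, 1.41-fold. Prph, a neuronal filament gene, fell from 727.6 ± 16.4 to 270.3 ± 28.9, 2.69-fold lower. The median log2 fold change of the 6 genes was 0.48, and that of the 4 other than Gfap and Vim was 0.14.

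Genes that set astrocyte fate went both ways. Of 23 such regulators 17 were listed, 12 higher and 5 lower, median log2 change 0.33. Nfix, a nuclear factor I gene, rose 1.60-fold (6336 ± 45.1 to 10148 ± 314), Sox9, which drives glial identity, rose 1.46-fold (4984 ± 20.5 to 7263 ± 182), and Pax6, of radial glia, rose 1.44-fold. Bmpr1a, a receptor for the BMP signals that favour astrocytes, fell 1.47-fold. Without the GC trend, 7 regulators were higher and 1 lower, the median was 0.075, and Bmpr1a lost its call (0.068 on the log2 scale, limma adjusted p 0.292).

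Genes known from reactive astrocytes, those that respond to injury or inflammation, were listed for 29 of 35. In limma 26 rose and 3 fell, median log2 change 0.70. Calls without the GC trend were 22 higher and 2 lower, with a median of 0.80. Serping1, the inhibitor of complement C1, rose 2.74-fold (259.7 ± 23.1 to 712.3 ± 27.3), Hspb1, a small heat shock protein, rose 2.69-fold (161.3 ± 16.5 to 433.5 ± 1.1), and S1pr3, a sphingosine phosphate receptor, rose 2.15-fold (6251 ± 82.2 to 13438 ± 126). Slc10a6, a steroid sulphate transporter, had 0 and 1 reads in the controls against 14 and 8 in the cKO libraries. Its ratio per unit of depth was 21.1, with a 95% counting interval of 3.41 to 870.5. The summed level of the list was 82176 and 82417 in controls against 83816 and 83584 in cKO libraries. Its most abundant gene, Serpina3n, a secreted protease inhibitor, read 53619 and 54025 in the controls against 39024 and 38988 in cKO libraries. Serpina3n was chosen for mention with its values known.

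Partners of Aqp4 in the membrane mostly rose. Of 14 aquaporins and anchors, Aqp4 included, 9 were listed, 6 higher and 3 lower, median log2 change 0.30. Calls without the GC trend were 6 higher, Aqp4 among them, and 1 lower, with a median of 0.35. Mlc1, a membrane protein of endfeet, rose 1.74-fold (26867 ± 450.3 to 46832 ± 306) and Hepacam, its adhesion partner, rose 1.56-fold. Aqp1, the channel of the choroid plexus, rose 2.21-fold from a low level of 60.0 ± 4.2.

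The folate enzymes around Aldh1l1 were listed for 12 of 20, with 9 higher and 3 lower, median log2 change 0.33. Aldh1l2, the mitochondrial relative of Aldh1l1, fell 2.04-fold (3510.5 ± 41.7 to 1724 ± 4.5) while Aldh1l1 rose. Slc46a1, the proton-coupled folate transporter, rose 1.47-fold and lost its call without the GC trend (0.16 on the log2 scale, limma adjusted p 0.316). With that trend removed, 4 genes of the list were higher and 3 lower, with a median of 0.14.

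Around Aldoc, 6 of 12 aldolases and neighbouring glycolytic enzymes were listed. These 6 rose (median log2 change 0.57), and 4 were still called without the GC trend. Pfkp rose 1.68-fold, Pfkfb3, which makes the activator of phosphofructokinase, from 3289 ± 17.5 to 4919 ± 92.5, and Pfkm 1.47-fold. Aldoa, the general aldolase and paralogue of Aldoc, was named outside the rule. It read 11877 and 12048 in the controls against 15319.9 and 14854 in cKO libraries, and its log2 value of 0.33 became -0.062 without the GC trend (limma adjusted p 0.136).

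The angiotensin system was listed for 6 of 14 genes without Agt, 4 higher and 2 lower, median log2 change 0.53. Without the GC trend all 6 were called higher, as were 2348 of all 6934 genes fitted. The genes that turned, named with their values known, were Atp6ap2, the prorenin receptor (-0.22 to 0.45 on the log2 scale), and Lnpep, a membrane peptidase (-0.49 to 0.19). Anpep and Ace, membrane peptidases also found on vessel walls, rose 3.01-fold (38.9 ± 8.3 to 117.1 ± 19.0) and 1.93-fold (134.2 ± 5.4 to 259.0 ± 42.4). Agtrap, a protein that binds the angiotensin receptor, rose 1.45-fold and Ctsd, a lysosomal protease, 1.44-fold. Among lipid carriers and their receptors, the wider group of Clu, 10 of 14 were listed. Of these 10, 9 were higher and 1 lower, and their median was 0.53. Calls without the GC trend were 7 higher and 1 lower, with a median of 0.41. Apod, apolipoprotein D, rose 5.12-fold (504.8 ± 27.1 to 2584 ± 108) and Pltp, a phospholipid transfer protein, 2.04-fold. Vldlr, a receptor for lipoproteins and reelin, fell 3.14-fold.

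GC content moved with the changes across all listed genes. In the quintile of genes with the lowest GC content, up to 43.1%, the median log2 fold change was -0.67 and 8.22% were called higher. In the quintile with the highest, from 55.6%, the median was 0.41 and 79.2% were called higher. Aqp4, with a GC content of 41.4%, lay in the lowest quintile and Vim, at 46.5%, in the next to lowest. Aldoc (51.9%), Aldh1l1 (54.4%) and Gfap (55.5%) lay in the next to highest and Clu (55.6%) in the highest.

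With the GC trend removed in each library, all 6 genes were called higher, as were 2348 of the 6934 genes fitted, while 2409 were called lower. The log2 fold change of Gfap went from 0.66 to 0.29, that of Clu from 0.78 to 0.41, that of Aldh1l1 from 0.75 to 0.41 and that of Aldoc from 0.63 to 0.42. Vim went from 0.74 to 1.01 and Aqp4 from -0.16 to 0.46. Vim was thus the highest of the 6 after the trend was removed, and Gfap the lowest. The trend was fitted on genes that were listed for their difference.

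**Figure D4:**
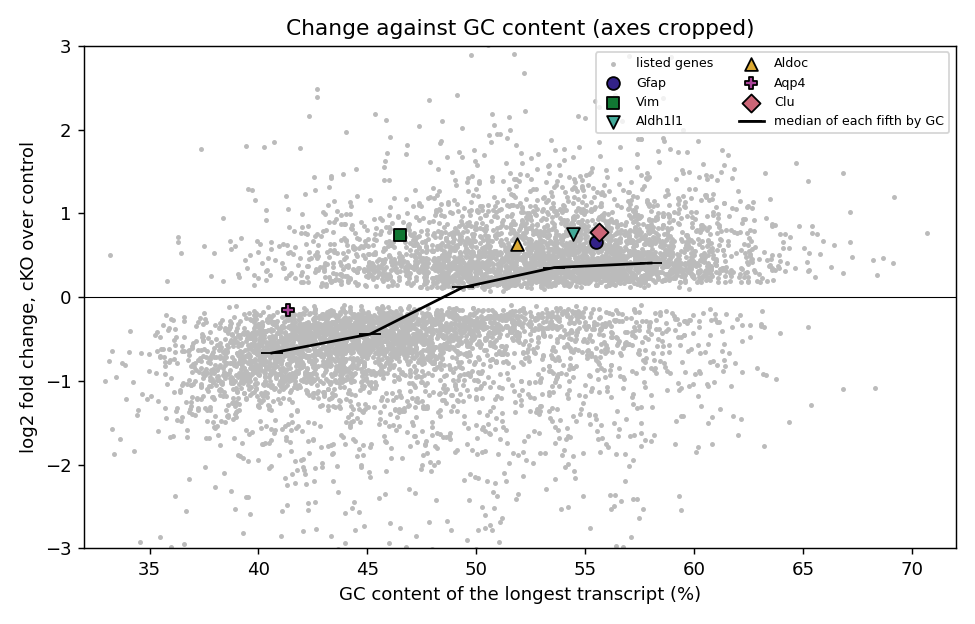
Log2 fold change, cKO over control, against the GC content of the longest transcript for the listed genes (grey; axes cropped), with the 6 astrocyte genes marked and a line through the median of each quintile of genes by GC content. The medians climb from -0.67 in the lowest quintile to 0.41 in the highest; Vim, at 46.5% GC, stands far above the median of its quintile, which is -0.44.

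**Figure D5:**
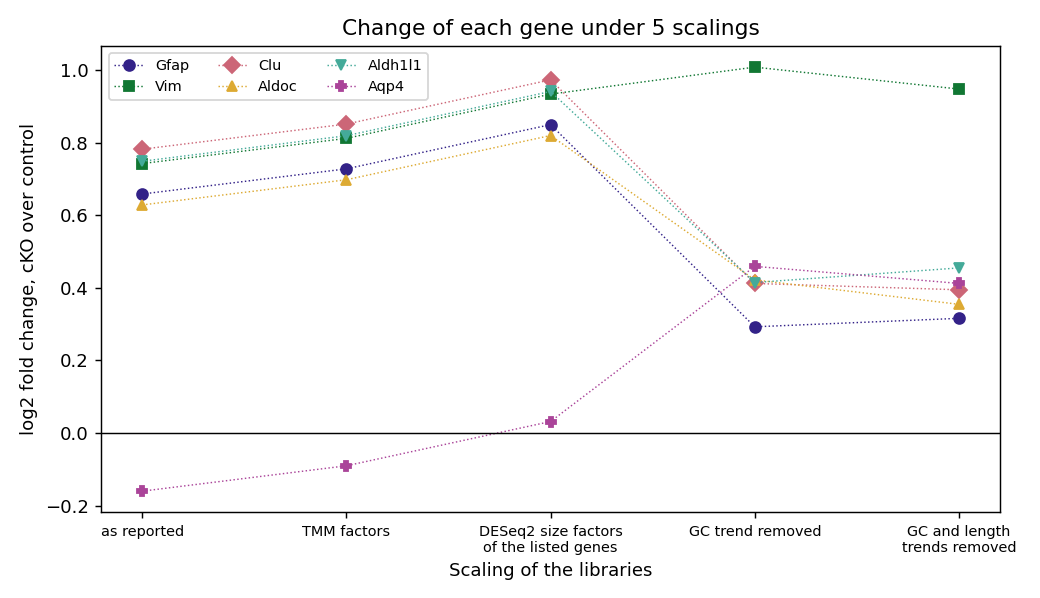
Log2 fold change, cKO over control, of each astrocyte gene under 5 scalings of the libraries; dotted lines join the values of a gene and carry no order. With DESeq2's own size factors all values move up by about the same step, Aqp4 reaching 0.032, whereas with the GC trend removed Vim stands at 1.01 and the other 5 genes lie between 0.29 and 0.46.

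The genes of most similar pattern were found by the distance between log2 values centred on each gene's mean over the 4 libraries, among 3635 listed genes with a mean of at least 1000. With 4 libraries this measure reads little beyond the fold change. Nearest to Gfap were Timp2, a metalloproteinase inhibitor (distance 0.0133), and Selenop, a selenium carrier (0.0222). Nearest to Vim were Slc1a4, a neutral amino acid transporter (0.0156), and Plcd4, a phospholipase (0.0167). Nearest to Aldh1l1 were Acsbg1, an acyl-CoA synthetase (0.00743), and Tppp3, a tubulin polymerisation protein (0.00971). Nearest to Aldoc were Pmm1, a phosphomannomutase (0.0153), and Slc13a3, a dicarboxylate transporter (0.0170).

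For Clu the nearest genes were Ephx1, an epoxide hydrolase (0.0117), and Stmn1, the microtubule regulator stathmin (0.0242). For Aqp4 they were Xpot, an exportin of transfer RNA (0.0132), and Wnk1, a kinase of ion transport (0.0171). Acsbg1 read 10840 and 11011 in the controls against 18928 and 17759 in cKO libraries. Its wide gap between the cKO libraries is like that of Aldh1l1 by choice, since the distance includes this gap. Wnk1 read 9316 and 9232 against 8573 and 8045, a small fall like that of Aqp4, again by the way it was chosen.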

How the data were processed

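The deposited table, per the file headers, gives for every gene 4 columns of normalised signal, the authors' log2 fold change, p-value and adjusted p-value. Per the submitters' processing notes, DESeq2 and the builds mm10 and GRCm38 were used. The aligner, counter, annotation and strand setting are not given in the sources used here. Within a library 100% of values came out as whole reads (tolerance 0.01) after division by 1 constant, so reads were recovered. A read was worth 1.0, 1.0181, 0.8165 and 1.1866 in control 1, control 2, cKO 1 and cKO 2. Columns of no sample numbered 0.

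Genotypes were compared with limma 3.58.1 in R 4.3.3 on log2(value + 1) with a variance trend over all 6940 genes, genotype as the only term, after a filter of 1 in at least 2 libraries. Benjamini-Hochberg adjustment took 17347 genes, and under 0.05 was a call. Fold changes of named genes are ratios of mean values. edgeR 4.0.16 and DESeq2 1.42.0 on recovered reads were alternatives. edgeR called 3244 genes higher and 3696 lower with the authors' factors. GC content came from the longest GENCODE vM21 transcript (6934 genes), and the trend was removed by loess (span 0.5). Promoters came from RefSeq and were read for Gfap, Vim, Aldoc, Aldh1l1 and Agt. Clu had no entry, and promoters on chromosome 18, where Aqp4 lies, were left out. The test was checked on simulated data in which most genes were unchanged and the spread was set, unlike the listed genes. That check does not cover a table that lists only called genes. Zdhhc5 and Agt were not analysed here.

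The genes and lists were chosen with earlier results of these data known. Named genes were all listed genes of the rule, up to 4 genes per list with the largest changes among those called, and the 2 nearest in pattern. Some genes that this rule selects are not reported here.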

Additional observations from a re-analysis of the deposited data

How the results depend on the processing

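Over 15 alternatives, Gfap, Vim, Aldh1l1, Aldoc and Clu kept their direction and their call, with log2 fold changes from 0.29 to 0.85 for Gfap, 0.72 to 1.01 for Vim, 0.41 to 0.94 for Aldh1l1, 0.35 to 0.82 for Aldoc and 0.39 to 0.97 for Clu. Aqp4 kept its direction and call in 12 and was above 0 in 3, at 0.032 with DESeq2's own size factors (adjusted p 0.870), 0.46 without the GC trend and 0.41 without trends of GC content and length. The number of these genes called lower was then 0 in each of the 3. Among the 12, only edgeR with its TMM factors changed the scaling of the libraries, with Aqp4 at -0.090 (edgeR adjusted p 0.0067). The rest kept the authors' factors, so the count of 12 says little about the scaling. DESeq2's own size factors, computed from listed genes alone like the TMM factors and the trends, raised all log2 fold changes by a median of 0.191. Relative to the median of all listed genes, Gfap then stood 0.88 and Aqp4 0.058 higher, against 0.88 and 0.057 in the values reported. Over all genes, 2348 were called higher and 2409 lower without the GC trend, 2352 and 2425 without both trends, and 3247 and 2521 by DESeq2, against 3244 and 3696. The cause was not tested. Without 1 library at a time, Aqp4 ranged from -0.19 to -0.13 and Aldh1l1 from 0.71 to 0.79. The replicate numbers are shared by the genotypes, but same-numbered libraries did not deviate together (correlation 0.013 over genes), and a fit with a replicate block called 3242 genes higher and 3696 lower. With 2 libraries per genotype and only called genes listed, the pooled spread may be too small.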
